A study of Mus musculus with 5 samples.

Results

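The genes described here encode enzymes of amino acid catabolism, together with Sfxn1, a mitochondrial serine transporter. The set holds 37 of the 18018 genes in the table of single mouse hepatocytes, chosen by gene symbol, and it was ordered by the amino acid that each enzyme breaks down. Hepatocytes came from male C57BL/6J littermates that started at 8 weeks of age. For 12 weeks 3 mice received a high fat diet (HFD) and 2 mice a regular chow diet (LFD), and the labels give no other treatment and no genotype beyond the strain. Libraries were made by Drop-seq, a droplet method that marks each captured mRNA by its cell and by a random molecular tag (unique molecular identifier, UMI), and the design asks how hepatocytes differ between the diets.

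The liver is the main site where most amino acids are broken down. The amino group is removed and passed to the urea cycle, and the carbon skeleton enters gluconeogenesis, ketogenesis or the supply of folate-bound carbon units. Branched-chain amino acids differ, since their transamination takes place largely in muscle. Along the lobule, hepatocytes near the portal vein (periportal) are known for urea synthesis, gluconeogenesis and much of amino acid breakdown, and those near the central vein (pericentral) for glutamine synthesis and drug metabolism. Glucagon and glucocorticoids are known inducers of several of these enzymes, among them serine dehydratase and tyrosine aminotransferase.

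The HFD mice gave 238 cells and the LFD mice 216 cells, with 743176 and 755918 UMIs. HFD mouse 2 had 208 cells, HFD mouse 3 had 25 and HFD mouse 1 had 5, against 132 and 84 cells in LFD mice 1 and 2. A single UMI was therefore worth 35.8 CPM (a gene's UMIs per 1000000 of its mouse) for HFD mouse 1, 1.52 CPM for HFD mouse 2 and 17.1 CPM for HFD mouse 3, against 2.24 and 3.24 CPM for LFD mice 1 and 2. A gene with 0 UMIs could be as high as the level of 3 counts, which was 107.5, 4.57 and 51.3 CPM in HFD mice 1 to 3 and 6.71 and 9.71 CPM in LFD mice 1 and 2, for counting error only. Hepatocyte markers were abundant in every mouse, with 14 of 14 found and summed levels of 183134 to 215806 CPM in HFD mice and 185032 and 186594 CPM in LFD mice. HFD mouse 1 stood apart, with 8.98% mitochondrial UMIs against 5.10% to 5.63% in the others. Sinusoidal endothelial markers came to 1075 CPM there, where 2 of 11 had a UMI and 26 of the UMIs were Kdr while Stab1, Stab2 and Clec4g were at 0, against 22.4 to 34.2 CPM in the other mice. Erythroid markers summed to 502 and 291 CPM in HFD mice 1 and 3, while the other mice had 3.24 to 13.7 CPM. The fold changes for diet that the text names are therefore given for all 5 mice and without HFD mouse 1, and no cell barcode was shared between mice (0). The labels say that the mice were littermates but not how cages or preparation days fell, so p-values measure the spread between these mice only.

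All 37 members are protein-coding genes in the GENCODE vM21 annotation of GRCm38, spread over 17 chromosomes. The 4 enzymes that break down histidine are shown with their promoters because they moved together along the lobule axis, and Hpd is shown because it alone passed the threshold in the other direction. Hal, histidase, which removes ammonia from histidine, lies at chr10:93488768-93519304 on the plus strand. Amdhd1, imidazolonepropionase, lies at chr10:93523338-93540033 on the minus strand, 4033 bases beyond the end of Hal. Ftcd, which passes the formimino group of the pathway to folate, lies at chr10:76575648-76590338 on the plus strand. Uroc1, urocanase, lies at chr6:90333284-90364551 on the plus strand, and Hpd, hydroxyphenylpyruvate dioxygenase of tyrosine breakdown, at chr5:123171807-123182727 on the minus strand. The serine dehydratase gene Sds and its relative Sdsl are also neighbours, 3715 bases apart on chromosome 5.

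The 250 bases before each start, 5′ to 3′ on the strand of the gene, are given from RefSeq (GRCm38.p6), with matches of the motifs searched in capitals. The windows are chr10:93488518-93488767 (plus) for Hal, chr6:90333039-90333288 (plus) for Uroc1, chr10:93540034-93540283 (minus) for Amdhd1, chr10:76575398-76575647 (plus) for Ftcd and chr5:123182724-123182973 (minus) for Hpd.
Hal: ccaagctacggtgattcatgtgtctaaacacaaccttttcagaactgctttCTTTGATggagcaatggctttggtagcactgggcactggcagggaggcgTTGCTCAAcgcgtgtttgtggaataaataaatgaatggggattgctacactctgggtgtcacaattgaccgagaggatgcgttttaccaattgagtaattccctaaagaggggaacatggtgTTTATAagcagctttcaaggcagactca
Uroc1: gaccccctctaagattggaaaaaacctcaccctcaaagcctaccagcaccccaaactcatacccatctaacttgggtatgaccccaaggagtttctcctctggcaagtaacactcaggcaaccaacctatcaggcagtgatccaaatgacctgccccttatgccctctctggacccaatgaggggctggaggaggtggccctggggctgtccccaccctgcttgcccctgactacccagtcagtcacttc
Amdhd1: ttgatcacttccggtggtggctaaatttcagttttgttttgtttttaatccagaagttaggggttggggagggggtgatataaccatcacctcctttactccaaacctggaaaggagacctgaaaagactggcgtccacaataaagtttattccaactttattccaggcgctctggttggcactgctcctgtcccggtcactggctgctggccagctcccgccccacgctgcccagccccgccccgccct
Ftcd: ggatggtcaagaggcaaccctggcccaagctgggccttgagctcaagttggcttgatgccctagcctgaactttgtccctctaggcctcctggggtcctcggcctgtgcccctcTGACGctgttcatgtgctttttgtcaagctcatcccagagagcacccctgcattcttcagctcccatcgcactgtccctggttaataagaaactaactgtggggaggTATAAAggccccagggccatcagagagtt
Hpd: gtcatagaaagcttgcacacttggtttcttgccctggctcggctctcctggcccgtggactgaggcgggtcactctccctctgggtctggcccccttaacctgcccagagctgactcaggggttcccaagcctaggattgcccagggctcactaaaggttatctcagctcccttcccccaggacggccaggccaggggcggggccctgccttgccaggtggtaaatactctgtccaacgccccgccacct

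Both strands of each window were searched for TATAAA (the TATA box), TTGCNNAA (a C/EBP pattern) and CTTTGAT (a TCF/LEF pattern). Also searched were TGACG (a part of the cAMP response element) and TGTTCT (a part of the glucocorticoid receptor site). Hal held CTTTGAT from 199 to 193 bases and TTGCNNAA from 150 to 143 bases before the start, and TATAAA on the opposite strand from 28 to 23 bases before it. Ftcd held TGACG from 136 to 132 bases and TATAAA from 29 to 24 bases before its start. The letters searched were not in the windows of Uroc1, Amdhd1 and Hpd, so no motif was common to the 4 histidine genes. Over all 32851 RefSeq windows of this length, TATAAA was held by 12.4%, TTGCNNAA by 9.56%, CTTTGAT by 3.21%, TGACG by 17.8% and TGTTCT by 16.1%. Of the 33 members with a window, the TCF/LEF pattern was held by 2 and each of the other patterns by 4. Such a match describes letters and not a bound factor.

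The members gave 16337 UMIs in all, and 36 of 37 had at least 1. Amt, the aminomethyltransferase of the glycine cleavage system, was listed at 0 in all 5 mice. The members summed to 10035, 9258 and 11048 CPM in HFD mice 1, 2 and 3, against 12393 and 12270 CPM in LFD mice 1 and 2, so that every HFD mouse lay below both LFD mice. UMIs count captured 3′ ends, 1 per molecule, and are not divided by gene length. By this measure Tdo2 had the highest mean over the 5 mice, though in HFD mouse 1 Gstz1, Tat and Uroc1 were above it, and the tyrosine enzymes were the most abundant of the 9 amino acid groups in HFD mice 1, 2 and 3 and in LFD mice 1 and 2, at 3906, 2658 and 2805 CPM in HFD mice and 3509 and 3394 CPM in LFD mice.

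**Figure D1:**
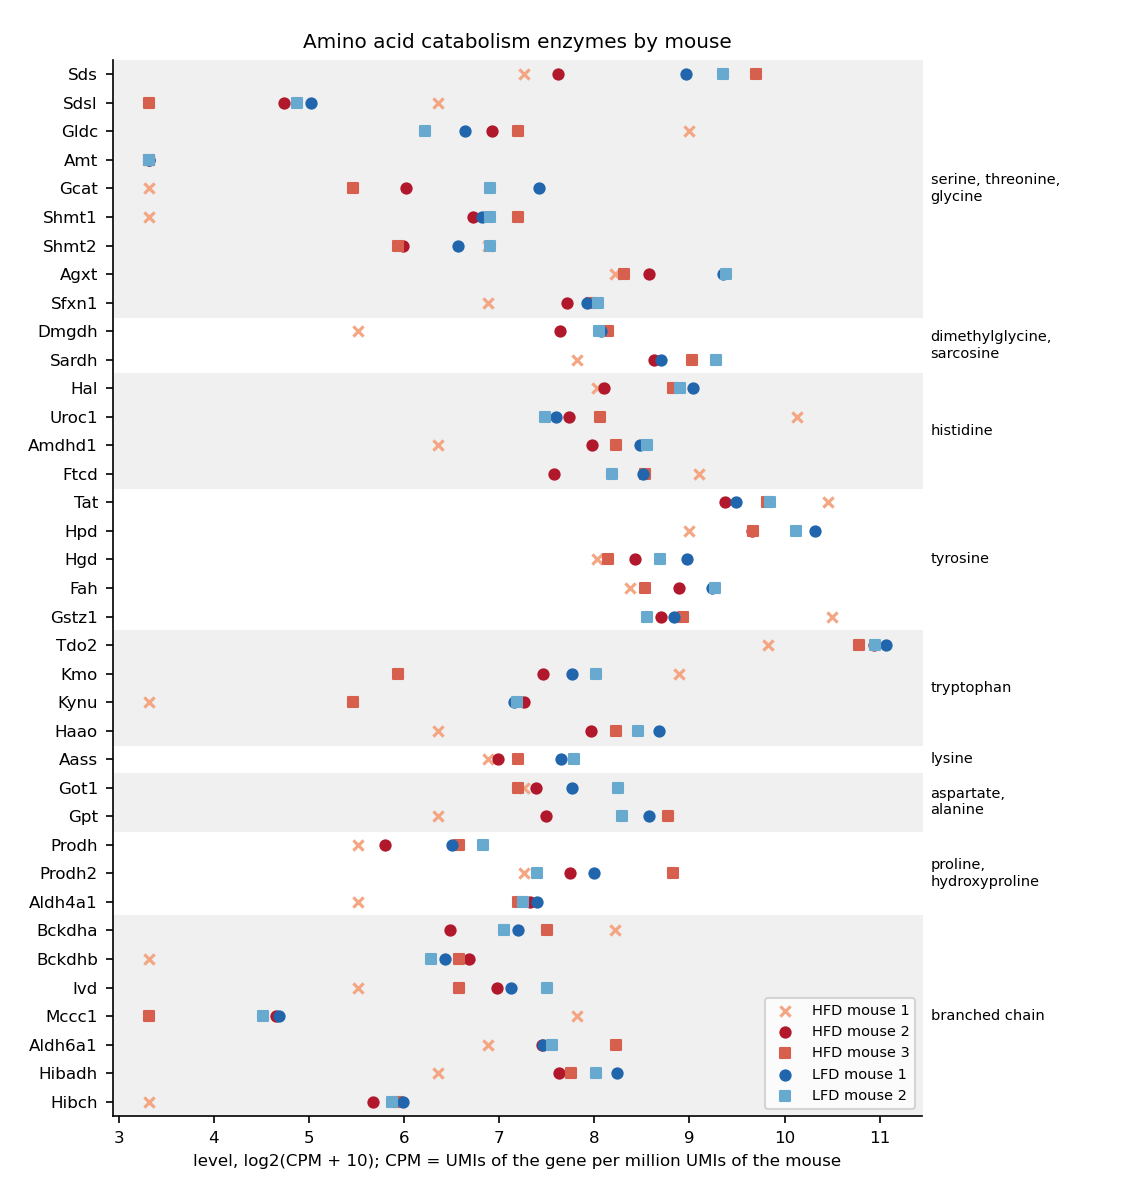
Level of each of the 37 members in each mouse, as log2(CPM + 10), with members down the page grouped by amino acid and a symbol per mouse. HFD mouse 1 (crosses) lies far from the other 4 mice for many members, for example at 1111 CPM for Uroc1 and at 0 UMIs for Gcat.

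Of the 37 members, 34 passed the filter on low counts and were tested for diet (Sdsl, Amt and Mccc1 did not). In 5 mice, limma voom called 0 of the 34 at an adjusted p under 0.05, where 0.221% of the 3614 genes tested were called (0.0553% higher and 0.166% lower in HFD). At an unadjusted p under 0.05 there were 4 members (11.8%), where 5.09% of all genes were. Limma-trend on the deposited log values also called 0, with 7 of 34 at an unadjusted p under 0.05, where 230 of 3614 genes were. The members' log2 fold changes (HFD over LFD) had a median of -0.60, against -0.08 over all genes tested, and 29 of 34 (85.3%) were below 0, against 56.3% of all genes. Without HFD mouse 1 the median was -0.48, against -0.00 over all genes. Of the 34 members, 28 (82.4%) were then below 0, against 50.3% of all genes. The same 28 were below 0 with and without that mouse.

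Without HFD mouse 1, 2 of 34 members passed the threshold, both lower in HFD, where 2.1% of 3670 genes were called lower and 3.38% in either direction. An unadjusted p under 0.05 was reached by 17 of the 34 members (50%) in this fit, where 668 of 3670 genes reached it. Agxt, which turns glyoxylate and alanine into glycine and pyruvate in peroxisomes, had 287, 370 and 308 CPM in HFD mice 1, 2 and 3, against 644 and 657 CPM in LFD mice 1 and 2. Its level in every HFD mouse was below that in either LFD mouse. Without HFD mouse 1 Agxt fell in HFD (log2 fold change -0.88, SE 0.19, limma adjusted p = 0.0149), and in 5 mice the value was -0.98 (SE 0.35, limma adjusted p = 0.794). Gcat, which cleaves the ketone product of threonine into glycine and acetyl-CoA, had 0, 54.8 and 34.2 CPM in HFD mice 1, 2 and 3, against 161 and 110.02 CPM in LFD mice 1 and 2. HFD mouse 3 held only 2 UMIs of Gcat, and the limit of the 0 in HFD mouse 1 (107.5 CPM) reaches almost to the lower LFD mouse. Gcat fell without HFD mouse 1, and its log2 fold change was -1.31 (SE 0.33, limma adjusted p = 0.0397), and the value in 5 mice was -1.71 (SE 0.59, limma adjusted p = 0.785). Under the other alternatives tried neither gene was called, with limma adjusted p of 0.0793 to 1 for Agxt and 0.222 to 1 for Gcat, which was not tested at a minimum of 50 UMIs.

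The labels give a raw read name for each mouse, and that of HFD mouse 3 is built differently from the other 4, and whether this marks another sequencing run is not stated. Without that mouse, 28 of 34 members were below 0 and their median was -0.75. Limma called 0 of the members, where it called 0 of all 3609 genes tested. An unadjusted p under 0.05 was then reached by 3 members, where 135 of 3609 genes reached it. On the scale of log2(CPM + 10), the median distance of the 34 members from the LFD mean was -1.15, -0.42 and -0.11 in HFD mice 1, 2 and 3. By this median HFD mouse 1 was the lowest and HFD mouse 3 the nearest to the LFD level, whereas by summed CPM HFD mouse 2 was the lowest. In bulk sums over cells, fewer expressing cells and less RNA per cell cannot be told apart.

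**Figure D2:**
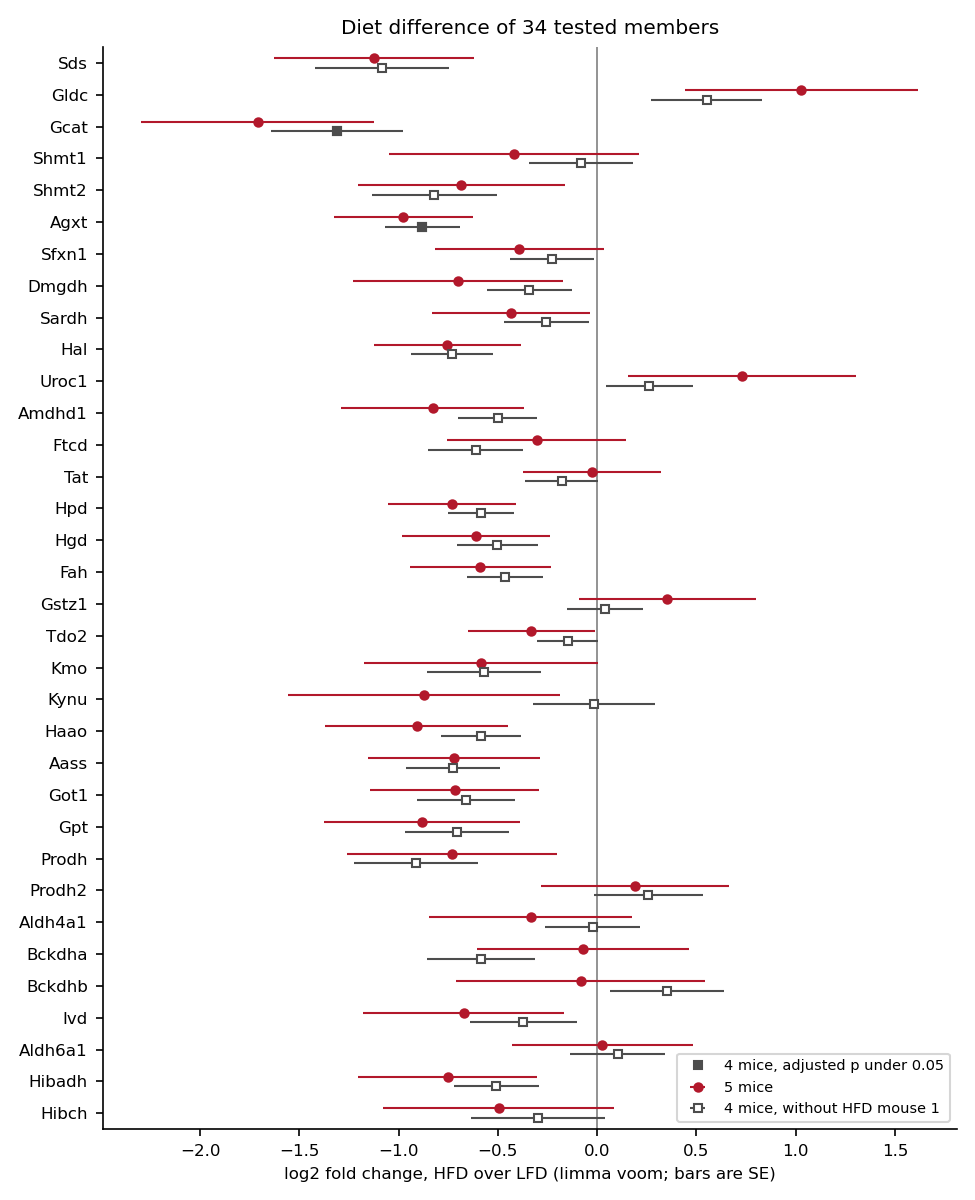
Log2 fold change (HFD over LFD, limma voom) of the 34 tested members with its SE, for all 5 mice (circles) and without HFD mouse 1 (squares). Filled squares mark Agxt and Gcat, whose adjusted p was under 0.05 without HFD mouse 1, and most points lie left of 0 in both fits.

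Among serine, threonine and glycine genes, Sds had the highest mean CPM over the 5 mice. Sds, which turns serine into pyruvate and ammonia, had 143, 186 and 821 CPM in HFD mice 1, 2 and 3, against 488 and 644 CPM in LFD mice 1 and 2. The diets overlapped, since HFD mouse 3 was the highest of all mice and the other HFD mice were the lowest. The log2 fold change of Sds was -1.12 (SE 0.50, limma adjusted p = 0.948), and -1.09 (SE 0.34, limma adjusted p = 0.0963) without HFD mouse 1. Dropping HFD mouse 2 gave -0.51 and dropping HFD mouse 3 gave -1.68. Gldc, the decarboxylase of the glycine cleavage system, had 502, 111 and 137 CPM in HFD mice 1, 2 and 3, against 89.5 and 64.7 CPM in LFD mice 1 and 2. All 3 HFD mice were above both LFD mice, and 10 of the 14 Gldc UMIs of HFD mouse 1 came from a single barcode. Sfxn1 had 108, 199 and 239 CPM in HFD mice 1, 2 and 3, against 233 and 252 CPM in LFD mice 1 and 2, with overlap. The other members of this group were Shmt1 and Shmt2, the cytosolic and mitochondrial serine hydroxymethyltransferases, and Sdsl, which lay between 0 and 137 CPM in the 5 mice and overlapped between diets. Sardh, the sarcosine dehydrogenase of choline breakdown, had 215, 387 and 513 CPM in HFD mice 1, 2 and 3, against 405 and 612 CPM in LFD mice 1 and 2. Its diets overlapped, as did those of Dmgdh, the dimethylglycine dehydrogenase of the step before it, at 35.8 to 274 CPM in HFD mice and 259.6 and 255.6 CPM in LFD mice 1 and 2.

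The 4 histidine enzymes did not share a direction. Hal had 251, 265 and 445 CPM in HFD mice 1, 2 and 3, against 515 and 469 CPM in LFD mice 1 and 2. Amdhd1 had 71.7, 242 and 291 CPM in HFD mice 1, 2 and 3, against 347 and 366 CPM in LFD mice 1 and 2. For both genes every HFD mouse was below every LFD mouse, with log2 fold changes of -0.75 (SE 0.37) for Hal and -0.83 (SE 0.46) for Amdhd1, each at a limma adjusted p = 0.988. The values without HFD mouse 1 were -0.73 (SE 0.21, limma adjusted p = 0.0644) for Hal and -0.50 (SE 0.20, limma adjusted p = 0.185) for Amdhd1. Leaving out single mice gave -0.90 to -0.42 for Hal, lowest in size without HFD mouse 2, and -1.25 to -0.50 for Amdhd1, largest in size without HFD mouse 3. Uroc1, which acts between them, had 1111, 202 and 257 CPM in HFD mice 1, 2 and 3, against 183 and 168 CPM in LFD mice 1 and 2, so that the HFD mice were above the LFD mice. In HFD mouse 1, 21 of its 31 UMIs came from barcodes of low complexity, which hold few genes for their UMIs. Ftcd had 538, 181 and 359 CPM in HFD mice 1, 2 and 3, against 356 and 282 CPM in LFD mice 1 and 2, with overlap.

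Among tyrosine enzymes, the dioxygenases and the last enzyme of the path were lower in all 3 HFD mice, and the transaminase and the isomerase overlapped. Tat, tyrosine aminotransferase, had 1398, 655 and 889 CPM in HFD mice 1, 2 and 3, against 707 and 912 CPM in LFD mice 1 and 2. Hpd had 502, 799 and 804 CPM in HFD mice 1, 2 and 3, against 1267 and 1103 CPM in LFD mice 1 and 2. Its log2 fold change was -0.73 (SE 0.32, limma adjusted p = 0.948), and -0.58 (SE 0.17, limma adjusted p = 0.0664) without HFD mouse 1. Hgd, homogentisate dioxygenase, had 251, 333 and 274 CPM in HFD mice 1, 2 and 3, against 495 and 404 CPM in LFD mice 1 and 2. Fah, fumarylacetoacetase, had 323, 466 and 359 CPM in HFD mice 1, 2 and 3, against 593 and 608 CPM in LFD mice 1 and 2. The HFD levels of Hpd, Hgd and Fah did not reach the LFD levels in any mouse, although no test of them passed. Gstz1, the maleylacetoacetate isomerase that acts between Hgd and Fah, had 1434, 405 and 479 CPM in HFD mice 1, 2 and 3, against 448 and 366 CPM in LFD mice 1 and 2. A single barcode of HFD mouse 1 held 35 of its 40 Gstz1 UMIs.

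In tryptophan breakdown, Tdo2, the dioxygenase that opens the indole ring, had 896, 1958 and 1744 CPM in HFD mice 1, 2 and 3, against 2128 and 1964 CPM in LFD mice 1 and 2. HFD mouse 2 and LFD mouse 2 were almost level, and HFD mouse 1 was by far the lowest. Haao, which makes the quinolinate precursor, had 71.7, 239 and 291 CPM in HFD mice 1, 2 and 3, against 401 and 343 CPM in LFD mice 1 and 2. The HFD and LFD mice did not overlap for Haao, whose log2 fold change was -0.91 (SE 0.46, limma adjusted p = 0.988). Leaving out HFD mouse 1, which held 2 UMIs of Haao, gave -0.58 (SE 0.20, limma adjusted p = 0.129), and leaving out LFD mouse 1 gave -0.54. Kmo and Kynu, the members that act between Tdo2 and Haao, lay at 0 to 466 CPM in HFD mice and 132 to 249 CPM in LFD mice and overlapped. Aass, which starts lysine breakdown, had 108, 117 and 137 CPM in HFD mice 1, 2 and 3, against 190 and 210.3 CPM in LFD mice 1 and 2. All 3 HFD mice were below both LFD mice for Aass, where HFD mouse 1 held 3 UMIs and HFD mouse 3 held 8.

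Of the transaminases, Got1, cytosolic aspartate aminotransferase, had 143, 157 and 137 CPM in HFD mice 1, 2 and 3, against 208 and 294 CPM in LFD mice 1 and 2. Gpt, alanine aminotransferase, had 71.7, 171 and 428 CPM in HFD mice 1, 2 and 3, against 371 and 304 CPM in LFD mice 1 and 2. Got1 was lower in every HFD mouse, while for Gpt HFD mouse 3 was the highest of all mice (log2 fold change -0.88, SE 0.49, limma adjusted p = 0.988). That of Gpt was -0.71 without HFD mouse 1 (SE 0.26, limma adjusted p = 0.156), and it was -0.35, -1.47 and -0.47 without HFD mouse 2, HFD mouse 3 and LFD mouse 1. Prodh2, hydroxyproline dehydrogenase, had 143, 204 and 445 CPM in HFD mice 1, 2 and 3, against 246 and 159 CPM in LFD mice 1 and 2. Its relative Prodh, proline dehydrogenase, and Aldh4a1, which completes proline breakdown, lay at 35.8 to 151 CPM in HFD mice and 80.6 to 159 CPM in LFD mice, and all 3 overlapped between diets.

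Of the 7 branched-chain members, Hibadh, hydroxyisobutyrate dehydrogenase of the valine path, had the highest mean CPM, with 71.7, 187 and 205 CPM in HFD mice 1, 2 and 3, against 291 and 249 CPM in LFD mice 1 and 2. Ivd, isovaleryl-CoA dehydrogenase of the leucine path, had 35.8, 116 and 85.5 CPM in HFD mice 1, 2 and 3, against 130 and 171 CPM in LFD mice 1 and 2. Both were lower in every HFD mouse. The decarboxylase subunits Bckdha and Bckdhb, the valine enzymes Hibch and Aldh6a1 and the carboxylase subunit Mccc1 overlapped between diets. All 6 UMIs of Mccc1 in HFD mouse 1 came from a single barcode.

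In 13 of the 34 tested members (38.2%) all 3 HFD mice were below both LFD mice, where 14.3% of all genes tested had this pattern. In 2 members (5.88%), Gldc and Uroc1, all 3 HFD mice were above both LFD mice, where 8.88% of all genes did. Without HFD mouse 1 the count was 15 lower (44.1%), where 20.2% of all genes did, and 3 higher (8.82%), where 20.6% did. HFD mouse 1 held 5 or fewer UMIs of 20 of the 34 tested members, so its place below the LFD mice often rests on a handful of molecules. SEs of the members' log2 fold changes were 0.32 to 0.69 in 5 mice and 0.15 to 0.34 without that mouse.

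Cells were then placed along the lobule by their own transcripts. In each mouse they were ranked by the log2 ratio of 17 pericentral to 17 periportal genes, none of them a member, and divided at the median into a pericentral and a periportal side. This axis was computed and not observed in tissue. The 4 mice with at least 20 cells were used, with sums per mouse and side tested by limma voom with mouse as a block. The pericentral side had 362504, 32798, 187869 and 141589 UMIs in HFD mice 2 and 3 and LFD mice 1 and 2, and the periportal side 294299, 25672, 258999 and 167461 UMIs. Median UMIs per cell in these mice were 2219.5, 1949, 2068 and 2756 pericentrally, against 2058, 1752.5, 3426 and 3242.5 periportally. The part of this depth in the ranking and in the results was not tested. Mitochondrial UMIs were 4.41% to 5.50% on the pericentral side and 5.25% to 6.40% on the periportal side, and their part in the results was not tested.

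All 4 histidine enzymes, serine dehydratase (Sds) and 4 further members were higher on the periportal side, and Hpd on the pericentral side. Of 33 members tested, 10 passed the threshold (30.3%), where 6.86% of 2012 genes were called. Toward the periportal side there were 9 members (27.3%), where 3.83% of genes were called, and toward the pericentral side 1, where 3.03% were called. Over the 33 members the median log2 fold change (pericentral over periportal) was -0.08, against -0.01 over all genes tested. A further count by mouse gave 11 of 33 members (33.3%) higher on the periportal side in 4 of 4 mice, where 8.1% of all genes had this pattern. On the pericentral side 5 members (15.2%) were higher in 4 of 4 mice, where 16.6% of all genes were.

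**Figure D3:**
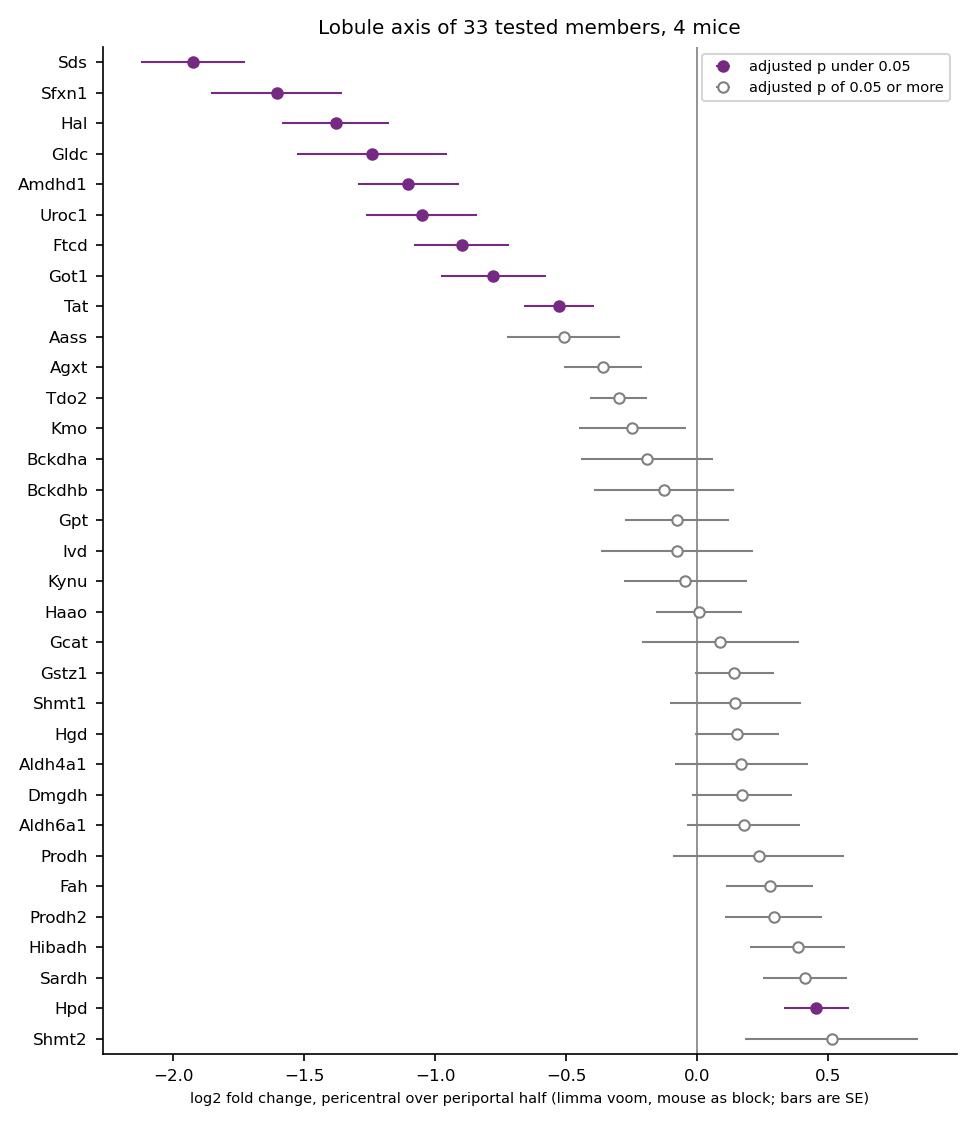
Log2 fold change (pericentral over periportal side, limma voom with mouse as a block, 4 mice) of the 33 tested members with its SE, ordered by size. Filled points passed an adjusted p of 0.05, 9 of them left of 0 and Hpd right of it.

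Hal, Uroc1, Amdhd1 and Ftcd were each higher periportally in 4 of 4 mice. Hal had 105, 366, 335 and 311 CPM on the pericentral side of HFD mice 2 and 3 and LFD mice 1 and 2, against 462, 545, 645 and 603 CPM on the periportal side. The log2 fold change was -1.38 for Hal (SE 0.21, limma adjusted p = 9.6e-05), which was the steepest of the 4. Uroc1 had 135, 213, 144 and 91.8 CPM on the pericentral side of the same mice, against 285, 312, 212 and 233 CPM on the periportal side (log2 fold change -1.05, SE 0.21, limma adjusted p = 0.00257). Amdhd1 had 132, 213, 234 and 297 CPM on the pericentral side, against 377, 390, 429 and 424 CPM on the periportal side (log2 fold change -1.10, SE 0.19, limma adjusted p = 0.000529). Ftcd had 124, 274, 240 and 240 CPM on the pericentral side, against 251, 467, 440 and 316 CPM on the periportal side (log2 fold change -0.90, SE 0.18, limma adjusted p = 0.00257). Within each mouse the periportal value of every one of these genes exceeded the pericentral value, although the sides overlapped between mice for Uroc1 and Ftcd.

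Of the 7 tested genes of serine, threonine and glycine breakdown, Sds, Sfxn1 and Gldc passed, all toward the periportal side. Shmt1, Shmt2, Gcat and Agxt did not, with log2 fold changes of 0.14, 0.51, 0.09 and -0.36. Agxt was higher periportally in 4 of 4 mice (SE 0.15, limma adjusted p = 0.185). Sds had the largest difference of all tested members. It had 57.9, 549, 224 and 268 CPM on the pericentral side of HFD mice 2 and 3 and LFD mice 1 and 2, against 343, 1169, 680 and 961 CPM on the periportal side. The periportal side was higher in 4 of 4 mice, where the log2 fold change was -1.92 (SE 0.20, limma adjusted p = 7.63e-07), although HFD mouse 3 was higher on its pericentral side than HFD mouse 2 on its periportal side. Sdsl, its close relative, was not tested and had 0 to 8.28 CPM on the pericentral side, against 0 to 35.8 CPM on the periportal side. Sfxn1, which brings serine into mitochondria, had 71.7, 213, 160 and 134 CPM on the pericentral side, against 357, 273, 286 and 352 CPM on the periportal side. The sides of Sfxn1 did not overlap between mice, and its log2 fold change was -1.61 (SE 0.25, limma adjusted p = 0.000184). Gldc had 63.4, 152, 47.9 and 49.4 CPM on the pericentral side, against 170, 117, 120 and 77.6 CPM on the periportal side. It was higher periportally in 3 of 4 mice, the exception being HFD mouse 3 with 8 UMIs in all, and its log2 fold change was -1.24 (SE 0.29, limma adjusted p = 0.00721). The call of Gldc was lost without HFD mouse 2 (limma adjusted p = 0.112).

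Got1 and Tat, both transaminases, had smaller periportal differences. Got1 had 108, 122, 170 and 240 CPM on the pericentral side of HFD mice 2 and 3 and LFD mice 1 and 2, against 217, 156, 236 and 340 CPM on the periportal side (log2 fold change -0.78, SE 0.20, limma adjusted p = 0.017). Tat had 571, 823, 532 and 833 CPM on the pericentral side, against 758, 974, 834 and 979 CPM on the periportal side (log2 fold change -0.53, SE 0.13, limma adjusted p = 0.0143). Hpd, the enzyme after Tat in tyrosine breakdown, went the other way, with 935, 884, 1586 and 1349 CPM on the pericentral side, against 632, 701, 1035 and 896 CPM on the periportal side. The pericentral side of Hpd was higher in 4 of 4 mice, where the log2 fold change was 0.45 (SE 0.12, limma adjusted p = 0.0238). These 3 calls depended on single mice: Got1 was lost without LFD mouse 2 (limma adjusted p = 0.0532) or HFD mouse 2 (limma adjusted p = 0.16), Tat without LFD mouse 1 (limma adjusted p = 0.0503), and Hpd without LFD mouse 1 (limma adjusted p = 0.119) or LFD mouse 2 (limma adjusted p = 0.0816). Sds, Sfxn1 and the 4 histidine enzymes were called without each of the 4 mice in turn. With HFD mouse 1 added, which brings only 3 and 2 cells to the sides, none of the 10 was called. The log2 fold change was then -2.20 for Sds (limma adjusted p = 0.144), -1.55 for Hal (limma adjusted p = 0.285) and -0.84 for Uroc1 (limma adjusted p = 0.645), and limma called 1 of 1661 genes.

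**Figure D4:**
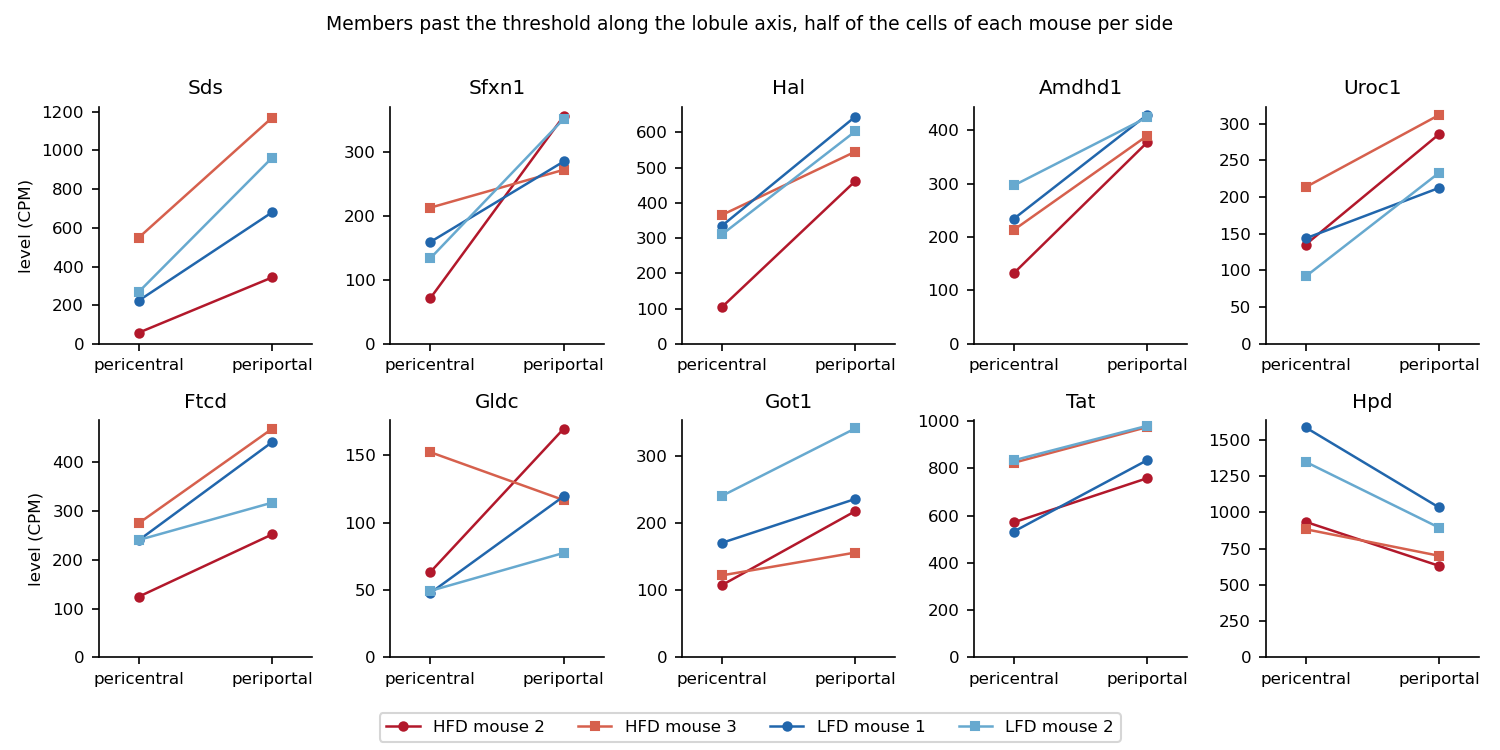
Level in CPM (vertical axes from 0) on the pericentral and the periportal side of each of 4 mice for the 10 members past the threshold, a line per mouse. Lines run upward to the periportal side for 9 genes, except Gldc in HFD mouse 3, and downward for Hpd in all 4 mice.

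The other 23 tested members had log2 fold changes between -0.51 and 0.51 and did not pass. Among them Tdo2 had 1928, 1433, 1906 and 1893 CPM on the pericentral side of HFD mice 2 and 3 and LFD mice 1 and 2, against 1995, 2142, 2290 and 2024 CPM on the periportal side. Its level was thus higher periportally in 4 of 4 mice by a small amount (log2 fold change -0.30, SE 0.11, limma adjusted p = 0.122). Sardh was the reverse, with 488, 549, 495 and 657 CPM on the pericentral side, against 262, 467, 340 and 573 CPM on the periportal side (log2 fold change 0.41, SE 0.16, limma adjusted p = 0.148). No branched-chain, proline, lysine or tryptophan member passed toward either side, with 15 members of the whole set (45.5%) at an unadjusted p under 0.05, where 17.3% of all genes were.

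When the cells of each mouse were divided by rank into 3 near-equal parts, Hal averaged 614 ± 100.4 CPM in the periportal, 417 ± 126 CPM in the middle and 202 ± 133 CPM in the pericentral part (SD, n = 4 mice). Sds averaged 871 ± 426, 542 ± 305 and 126 ± 72.4 CPM in the same order. Hpd averaged 803 ± 159, 964 ± 284 and 1277 ± 443 CPM in that order. The means of Hal and Sds thus fell step by step away from the portal side and those of Hpd rose, though not in every mouse: Hal in HFD mouse 3 and Hpd in HFD mouse 3 were not monotone. Between the outer parts, limma called 10 of 30 tested members (33.3%), where 12.2% of 1363 genes were called. They were 9 of the 10 named above and Agxt. Agxt averaged 481 ± 259 CPM in the periportal, 627 ± 204.5 CPM in the middle and 341 ± 102 CPM in the pericentral part. In HFD mouse 3 its periportal part (175 CPM) was below its pericentral part (217 CPM). Gldc did not pass the filter on low counts in this division and was not tested.

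**Figure D5:**
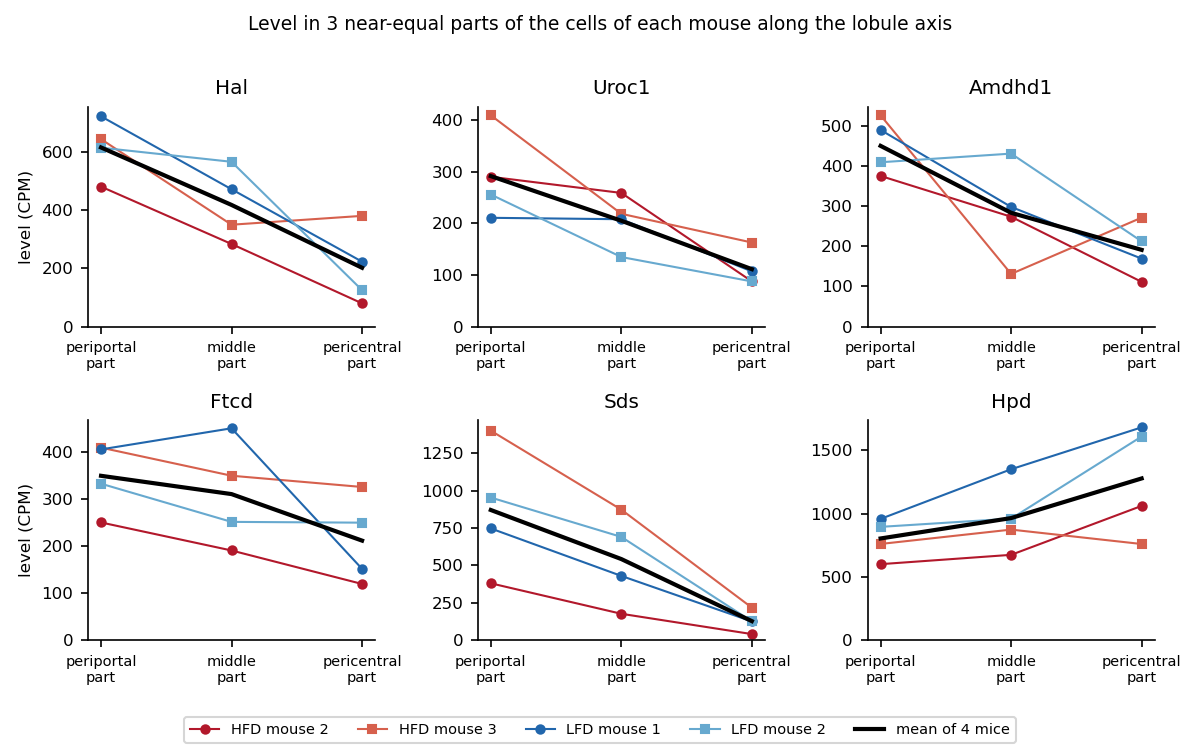
Level in CPM (vertical axes from 0) in 3 near-equal parts of the cells of each mouse, ordered from periportal to pericentral, for the 4 histidine enzymes, Sds and Hpd, with the mean of 4 mice as a thick black line. The mean of Sds is 871, 542 and 126 CPM along the axis and that of Hpd 803, 964 and 1277 CPM.

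Whether the difference between the sides itself differed with diet was tested by an interaction term. Limma called 0 of 33 members, where 0.0994% of 2012 genes were called, and 2 members (6.06%) had an unadjusted p under 0.05, where 4.08% of all genes did, with no other tool run. The share is near that over all genes, and these members were Hal and Amdhd1. The interaction was -0.92 on the log2 scale for Hal (SE 0.39, limma adjusted p = 0.954) and -0.76 for Amdhd1 (SE 0.34, limma adjusted p = 0.954). Without HFD mouse 3 the interaction of Hal was -1.24, but that setting leaves HFD mouse 2 alone, assumed to vary like the LFD mice. HFD mouse 3 itself had a smaller difference between the sides of Hal than any other mouse, as its values above show. Interactions of the 33 members lay between -1.01 and 0.94.

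The shares of cells with a UMI were compared after each cell was thinned to 1728 UMIs, which left 5 of 5, 134 of 208 and 14 of 25 cells of HFD mice 1, 2 and 3, and 114 of 132 and 74 of 84 cells of LFD mice 1 and 2. A thinned cell held a UMI of a median of 5, 10 and 13 members in HFD mice 1, 2 and 3, against 12 and 13 in LFD mice 1 and 2. Without thinning the medians were 7, 13 and 14 in HFD mice, against 17 and 18 in LFD mice, at median depths of 6598, 2181.5 and 1863 UMIs in HFD mice 1, 2 and 3 and of 2734 and 3075.5 UMIs in LFD mice 1 and 2. Tdo2 was found in nearly every thinned cell outside HFD mouse 1, in 94.8% of cells of HFD mouse 2 (exact 95% binomial interval 89.5% to 97.9%) and 92.9% of HFD mouse 3 (66.1% to 99.8%), against 97.4% of LFD mouse 1 (92.5% to 99.5%) and 94.6% of LFD mouse 2 (86.7% to 98.5%). Sds was found in 26.1% of thinned cells of HFD mouse 2 (18.9% to 34.4%), against 43.0% of LFD mouse 1 (33.7% to 52.6%) and 59.5% of LFD mouse 2 (47.4% to 70.7%). In HFD mouse 3 the share for Sds was 50% of 14 cells (23.0% to 77.0%), which overlaps all of these. Without thinning Sds was found in 30.3% and 68.0% of cells of HFD mice 2 and 3, against 56.1% and 64.3% of LFD mice 1 and 2, and Tdo2 in 97.6% and 92.0% against 96.2% and 96.4%. Every barcode held 3 or more UMIs of hepatocyte markers, so no cell type that should lack these genes was at hand to measure the background of free RNA. Whether the barcodes of low complexity are cells is not known.

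Beyond the members, a wider list of 51 genes of amino acid breakdown had 38 tested for diet, of which limma voom called 0 in 5 mice, with 1 at an unadjusted p under 0.05, and limma-trend 0 with 4. Of the 38, 30 were below 0, where 56.3% of all genes tested were. Their median was -0.40, against -0.08 over all genes. Without HFD mouse 1, Acat1, the thiolase of isoleucine and ketone body metabolism, rose in HFD. It had 143, 556 and 479 CPM in HFD mice 1, 2 and 3, against 320.0 and 314 CPM in LFD mice 1 and 2 (log2 fold change 0.74, SE 0.19, limma adjusted p = 0.0431, without HFD mouse 1). In 5 mice the log2 fold change of Acat1 was 0.35 (SE 0.48, limma adjusted p = 0.988). The call was 1 of 39 tested, where 1.28% of genes were called higher. Glud1, glutamate dehydrogenase, was among the most abundant of the wider list and had 1469, 612 and 513 CPM in HFD mice 1, 2 and 3, against 410 and 379 CPM in LFD mice 1 and 2. Every HFD mouse was above both LFD mice for Glud1, without a call (log2 fold change 0.77, SE 0.40, limma adjusted p = 0.988). It was 0.55 without HFD mouse 1 (SE 0.19, limma adjusted p = 0.128).

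Along the axis, 3 of the 34 tested genes of the wider list passed (8.82%), near the 6.86% of all genes. Oat, ornithine aminotransferase, was the steepest, with 452, 152, 633 and 600.3 CPM on the pericentral side of HFD mice 2 and 3 and LFD mice 1 and 2, against 30.6, 77.9, 162 and 29.9 CPM on the periportal side (log2 fold change 2.66, SE 0.32, limma adjusted p = 6.72e-06). Gcdh, glutaryl-CoA dehydrogenase of lysine and tryptophan breakdown, had 461, 457, 468 and 558 CPM on the pericentral side, against 265, 312, 344 and 281 CPM on the periportal side (log2 fold change 0.60, SE 0.16, limma adjusted p = 0.0215). Gls2, the liver glutaminase, was higher periportally, with 110.3, 213, 165 and 212 CPM on the pericentral side, against 282, 428, 328 and 293 CPM on the periportal side (log2 fold change -1.10, SE 0.20, limma adjusted p = 0.00099). Each of the 3 had its direction in 4 of 4 mice.

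Of 18 amino acid transporters, 11 were tested for diet, of which limma voom called 0 in 5 mice, with 1 at an unadjusted p under 0.05, and limma-trend 0 with 1. There were 9 below 0, where 56.3% of all genes tested were, and the median was -0.29, against -0.08 over all genes. Slc38a3, a glutamine transporter, had 466, 330.4 and 376 CPM in HFD mice 1, 2 and 3, against 669 and 544 CPM in LFD mice 1 and 2. It fell in HFD without HFD mouse 1 (log2 fold change -0.84, SE 0.19, limma adjusted p = 0.0213), and in 5 mice it did not pass (-0.77, SE 0.35, limma adjusted p = 0.948). That call without HFD mouse 1 was 1 of 11 transporters tested, where 2.1% of genes were called lower. Slc38a4, the most abundant transporter, had 788, 527 and 479 CPM in HFD mice 1, 2 and 3, against 653 and 680 CPM in LFD mice 1 and 2, with overlap. Slc7a2, a cationic amino acid transporter, was the 1 of 8 tested (12.5%) that passed along the axis, where 6.86% of all genes did, with 93.8, 122, 255 and 205 CPM on the pericentral side of HFD mice 2 and 3 and LFD mice 1 and 2, against 231, 428, 274 and 340.4 CPM on the periportal side (log2 fold change -0.86, SE 0.23, limma adjusted p = 0.0194). Of 18 regulators, among them hormone receptors and transcription factors, limma voom called 0 of 13 for diet in 5 mice and 0 of 11 along the axis, each with 0 at an unadjusted p under 0.05, and limma-trend 0 with 0 for diet. Without HFD mouse 1 it called 0 regulators for diet, with 1 at an unadjusted p under 0.05. The most abundant regulators were Gcgr, the glucagon receptor, Cebpa and Hnf4a. Gcgr had 430.1, 189 and 393 CPM in HFD mice 1, 2 and 3, against 273 and 275 CPM in LFD mice 1 and 2, with overlap.

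Exons of 9 members overlap a gene on the opposite strand in the annotation, and whether counting used strand is not stated in the labels. The largest such overlaps were those of Bckdha with B3gnt8 (61.7% of exonic bases of Bckdha), Sds with Plbd2 (21.3% of Sds) and Aldh6a1 with Bbof1 (18.6% of Aldh6a1). Reads of such a pair may not have been told apart, and values of these members carry that uncertainty. Gcat has a further annotation entry of the same symbol on the same strand, and Aldh4a1 shares exonic bases with Gm21969.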

How the data were processed

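Mice were the unit of analysis (3 HFD, 2 LFD), and column prefixes, matched to sample titles, assigned cells to mice, with 0 columns unmatched. The submitters' processing notes name STAR 2.6.0a and mm10. How cells were filtered, and how shared reads, strand and doublets were treated, is not given in these sources. The deposited table holds the natural log of 1 plus each gene's UMIs per 10000 in the cell, which was read from the values: every cell summed to 10000 after back-transformation, and 100% of values above 0 were whole UMIs within a tolerance of 0.001. The deposited smoothed table (MAGIC) was not used.

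Recovered UMIs were summed per mouse. Tests used voom from limma 3.58.1 under R 4.3.3, with trimmed-mean factors and Benjamini-Hochberg adjustment over all genes tested, at 0.05. Since the deposited unit is a log, no count model was run. For diet, a gene was kept with 15 or more UMIs over all mice and, in 2 or more mice, at least the CPM that 10 UMIs make in the median library (32.4 CPM for 5 mice, 26.5 CPM for 4). For the axis, cells were ranked by the log2 ratio of pericentral to periportal score UMIs (1 added to both), and sums per side were fitted with mouse as a block. No doublet caller was run. For shares, cells were thinned to 1728 UMIs (the 25th percentile), and intervals are exact 95% Clopper-Pearson intervals that cover counting error only. Statistics were checked on simulated data, where both diet fits also called some unchanged genes. Replicate numbers of the titles were not taken to pair mice, as the labels do not say so.

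The text gives values in every mouse for the member of highest mean CPM of each amino acid group, the 12 of highest mean CPM, those past a threshold and the 8 of smallest p for diet. Members named beside these (Ivd, Dmgdh, Mccc1 and others given by range) were chosen after their values were seen, to account for every member. Members, gene lists and alternatives were chosen with earlier results of these data known. Symbols of 4 listed genes were matched through RefSeq synonyms. Alternatives were other normalization factors, count filters, tests, axis scores and divisions, a replicate block and leaving out each mouse, with leaving out 9 barcodes of low complexity (log10 of genes over log10 of UMIs under 0.8) and scores from pericentral or periportal genes alone added after the data were seen.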

Additional observations from a re-analysis of the deposited data

How the results depend on the processing

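For diet, limma called 8 genes in 5 mice, 2 with every gene of 3 or more UMIs, 16 with a minimum of 50 UMIs, 14 with limma-trend, 2 when the 5% of cells richest in UMIs were dropped, and 34 without cells of low complexity, an alternative added after the data were seen. Leaving out each mouse gave 0 to 124 genes: 124 without HFD mouse 1, and 0 without any single one of HFD mice 2 and 3 and LFD mice 1 and 2, where an unadjusted p under 0.05 was reached by 202, 135, 45 and 37 genes. The members called were 2 without HFD mouse 1 and 0 under the other alternatives that kept both LFD mice. Those below 0 were 25 to 28 when a mouse was left out, of 33 tested without HFD mouse 2 or LFD mouse 1 and of 34 otherwise. With a minimum of 50 UMIs they were 19 of 24 tested. The members' median was -0.75 to -0.47 when a mouse was left out. With the replicate number as a block 29 genes and 0 members were called and the members' median was -0.73. Same-numbered mice correlated at 0.03 and 0.07 in their deviations from the mean of their diet. With 2 LFD mice these deviations mirror each other, so the correlations cannot decide whether mice were paired. The numbers were read as names because the labels do not pair mice.

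Along the axis, all 5 mice gave 1 gene, 0 members and a member median of -0.42, and HFD mouse 1 brings only 3 and 2 cells to the sides. An unadjusted p under 0.05 was reached there by 8 of 33 members, where 127 of 1661 genes reached it. With no replicate block 70 genes and 7 members were called, without Got1, Tat and Hpd. Leaving out a mouse gave 96 to 199 genes, 8 to 10 members and medians of -0.21 to -0.05. The periportal genes alone as score called 8 members, without Gldc and Hpd, and the pericentral genes alone the same 10 (both added after the data were seen). All 10 were also called with the mean of log values as score, without Cyp2e1 and Cyp2f2 in the score, with the lower and the higher UMI minimum and without cells of low complexity. For the interaction, limma called 4 genes with the mean of log values and 0 in all 5 mice (6 at an unadjusted p under 0.05). Leaving out a mouse left a single mouse on its diet, so calls of those fits are not counted here. Of the 8 members followed for diet and the 10 along the axis, none changed direction under the alternatives in which it was tested. Outside these, leaving out cells of low complexity turned the diet estimates of Gstz1, Bckdhb and Tat, none of them called. The values were -0.02 for Gstz1 (0.35 in all cells), 0.26 for Bckdhb (-0.08) and 0.01 for Tat (-0.03). Genes outside the members were not followed through the alternatives. The cause of these differences was not tested. Depth limits HFD mice 1 and 3 most, where 1 UMI is worth 35.8 and 17.1 CPM.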

Other observations

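A few barcodes carried much of what HFD mouse 1 showed for the members. Its 5 barcodes held 8306, 7481, 6598, 2793 and 2725 UMIs but 2309, 469, 636, 1084 and 369 genes, and they held 122, 55, 66, 35 and 2 UMIs of the members. The second of these barcodes held 35 UMIs of Gstz1, 8 of Kmo and 6 of Mccc1, and 6 members in all. The third held 21 UMIs of Uroc1, 18 of Tat and 10 of Gldc, and 7 members in all. The first and the fourth, with most genes for their UMIs, held 27 and 23 members. Barcodes with log10 of genes over log10 of UMIs under 0.8 numbered 3 of 5 in HFD mouse 1, 6 of 208 in HFD mouse 2 and 0 of 25 in HFD mouse 3, against 0 of 132 and 0 of 84 in LFD mice 1 and 2. With all 9 left out, limma called 0 members for diet, and the members' median log2 fold change was -0.42. At an unadjusted p under 0.05 there were 4 of 34 members, where 321 of 3568 genes were.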
